A study of Homo sapiens with 12 samples.

Results

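The genes described here are 10 mitotic regulators that carry a cell from the G2/M boundary to its physical division. They are the kinases AURKA and PLK1, the Aurora A activator TPX2, the phosphatase CDC25C, the chromosomal passengers AURKB, BIRC5, INCENP and CDCA8, and the late mitotic proteins PRC1 and ANLN. They were chosen by name, and each matched 1 Ensembl identifier among the 59424 genes measured by RNA-seq. All 10 passed the filter on low values in both cell lines, which was a mean normalised read count of at least 5 over the 6 libraries of a line. The 12 libraries came from prostate cancer cell lines in which the glycosyltransferase GALNT7 had been lowered or raised, with 3 biological replicates in each of 4 groups. CWR22Rv1 cells carried either a lentiviral control hairpin (shControl) or GALNT7 knockdown (GALNT7 KD), and DU145 cells carried either a Lenti-ORF control (OE control) or GALNT7 overexpression (GALNT7 OE). All 4 groups were therefore transduced with lentivirus to make stable lines. The sources do not say whether a line was a pool or a clone, so what distinguishes a case line from its control line besides GALNT7 cannot be told apart from GALNT7 itself, and p-values measure the spread between these libraries.

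CWR22Rv1 and DU145 are established epithelial lines from prostate cancer. The epithelial keratin gene KRT8 was at 9990.0 normalised counts or higher in all 12 libraries. Markers of other cell types were low, though not level between the DU145 groups. The sum of the 3 immune markers was 63.5 to 124 normalised counts with OE control and 25.9 to 30.4 with GALNT7 OE, nearly all of it CD14 (limma log2 fold change -1.60, adjusted p = 0.00307), while CD3E was at 0 and PTPRC at most at 2.10 in all 12 libraries. The sum of the 3 fibroblast markers was 289 to 422 with OE control and 55.4 to 155 with GALNT7 OE, nearly all of it COL1A1 (limma log2 fold change -2.01, adjusted p = 0.00591). The 3 endothelial markers summed to 14.3 to 23.2 and 7.39 to 54.5. In CWR22Rv1 cells the immune, endothelial and fibroblast sums stayed at or below 111. The part of these shifts in the results below was not tested. GALNT7 itself moved as the labels say. In CWR22Rv1 cells it was at 862, 1042 and 1093 normalised counts with shControl and at 480.5, 501 and 399.7 with GALNT7 KD (log2 fold change -1.11, SE 0.129, limma adjusted p = 0.00512). The DU145 libraries held 1051, 928 and 913 normalised counts of it with OE control and at 1988.5, 2221 and 2334 with GALNT7 OE (log2 fold change 1.18, SE 0.0863, limma adjusted p = 7.99e-05). Between 18364512 and 24356910 reads per library lay behind these values. Each normalised count is the number of reads on a gene divided by a scaling factor of the library. Because each cell line has a table with its own scaling, no normalised count is set against that of the other line. Only orders and percentiles of genes within a line are given side by side.

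Entry into mitosis is driven by cyclin B with CDK1, which CDC25C activates by removing inhibitory phosphates. PLK1 and Aurora A, the latter held active on spindle microtubules by TPX2, build the bipolar spindle. Aurora B works in the chromosomal passenger complex, where INCENP is the scaffold and survivin (BIRC5) and borealin (CDCA8) direct the complex to centromeres and later to the midzone. PRC1 then cross-links the antiparallel microtubules of the midzone, and anillin (ANLN) organises the contractile ring that cleaves the cell. Transcripts of such genes accumulate in G2 and mitosis in cycling cells. In bulk RNA, a larger share of cells in G2 or mitosis and more RNA of these genes per cell cannot be told apart.

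In GENCODE 29 on GRCh38 all 10 are protein-coding genes, and a value counts reads over a gene's transcripts as a whole. The kinase genes are AURKA (ENSG00000087586) at chr20:56369389-56392337, minus strand, and PLK1 (ENSG00000166851) at chr16:23677656-23690367, plus strand. The activators of Aurora A and of CDK1 are TPX2 (ENSG00000088325) at chr20:31739271-31801805, plus strand, and CDC25C (ENSG00000158402) at chr5:138285265-138338355, minus strand. Of the passengers, AURKB (ENSG00000178999) at chr17:8204733-8210600, minus strand, and BIRC5 (ENSG00000089685) at chr17:78214186-78225636, plus strand, share a chromosome. The other passengers are INCENP (ENSG00000149503) at chr11:62123973-62153163, plus strand, and CDCA8 (ENSG00000134690) at chr1:37692418-37709719, plus strand. The genes of late mitosis are PRC1 (ENSG00000198901) at chr15:90966038-90995629, minus strand, and ANLN (ENSG00000011426) at chr7:36389806-36453791, plus strand.

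All 10 genes were upregulated in DU145 cells with GALNT7 OE, by 2.56-fold for INCENP to 4.53-fold for PLK1, and in none of them did the OE control and GALNT7 OE libraries overlap. The median log2 fold change of the 10 was 1.90, against -0.01 over the 18705 genes tested. The background of this comparison was broad: limma called 43.5% of all genes tested, 22.9% higher and 20.5% lower, and the groups did not overlap in 55.3%. All 10 genes rose by more than 1 on the log2 scale, as 5.28% of all genes tested did. Their log2 fold changes lay between the 97.3th and the 99.3th percentile of all genes tested. The division of all calls into higher and lower moved with scaling. It was 4290 higher and 3842 lower as deposited, and 3380 higher and 4736 lower after rescaling to the 75th percentile of each library, which moved the median of all genes to -0.11. The 10 genes were called higher under both.

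**Figure D1:**
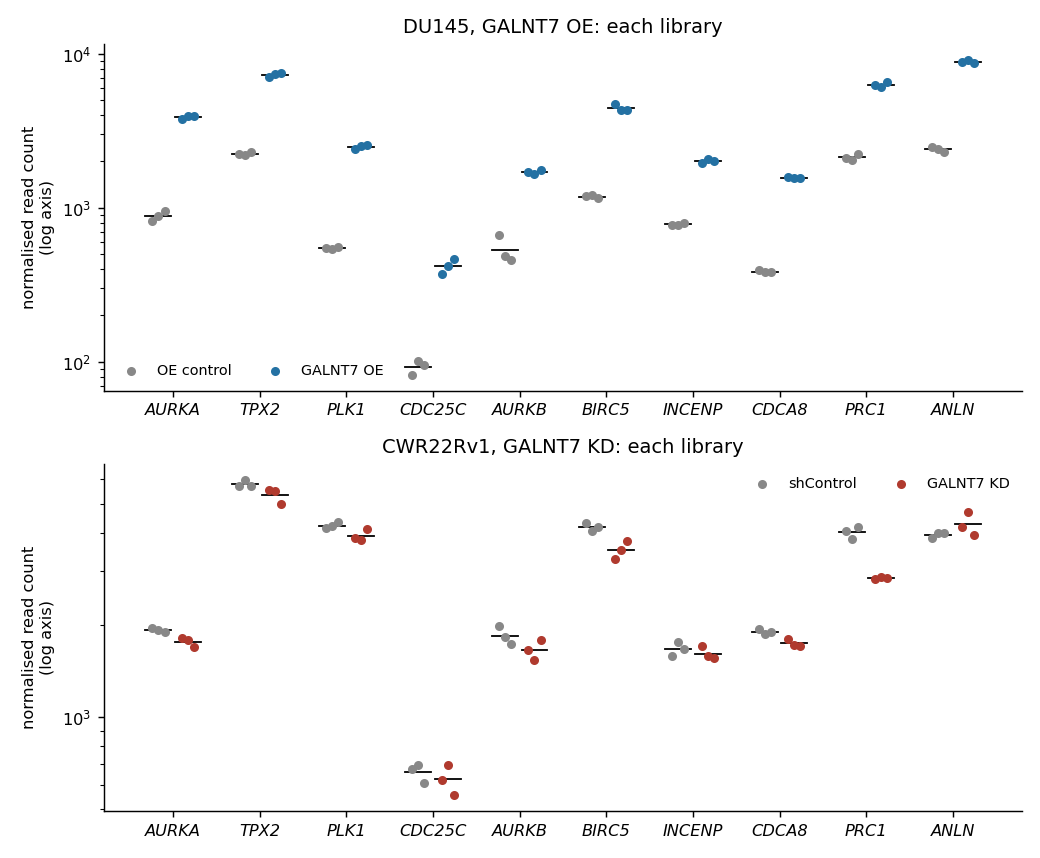
Normalised read count (log axis) of each of the 10 genes in each library, in DU145 cells above and CWR22Rv1 cells below; a point is 1 library, grey for control and coloured for the case group, and a short line is the mean of 3. In DU145 cells every coloured point lies above every grey point of its gene, and in CWR22Rv1 cells the pairs of groups lie close together, with PRC1 the widest apart.

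Among the kinases and their activators, PLK1 had the largest change. Its normalised counts were 552, 539 and 557 with OE control and 2393, 2518 and 2562.5 with GALNT7 OE (log2 fold change 2.18, SE 0.0572, limma adjusted p = 2.20e-06). The replicates of a group lay within a few percent of each other, with a coefficient of variation of 1.70% in the control and 3.52% in the case libraries. AURKA was at 819, 888 and 950.1 with OE control and at 3779.5, 3956 and 3953 with GALNT7 OE (log2 fold change 2.14, SE 0.0673, limma adjusted p = 3.22e-06). Its processed pseudogene AURKAP1 averaged 8.46 normalised counts over the same libraries, so few reads were assigned to the pseudogene. Whether reads from AURKAP1 were counted under AURKA cannot be told. TPX2, the activator of Aurora A, rose less than the kinase. It was at 2231, 2207 and 2290.2 with OE control and at 7037, 7444 and 7461 with GALNT7 OE (log2 fold change 1.70, SE 0.0437, limma adjusted p = 2.03e-06). CDC25C was the least abundant of the 10 genes, at 82.1, 101 and 94.7 with OE control. It reached 371, 418 and 466 with GALNT7 OE (log2 fold change 2.16, SE 0.135, limma adjusted p = 4.00e-05). The lowest CDC25C value still rested on 86 reads. CDC25C overlaps FAM53C on the other strand (a mean of 1372 normalised counts in DU145 cells); the library kit keeps the strand, but the sources do not state the strand setting of the counting.

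The 4 chromosomal passengers also rose, and unequally. CDCA8 was at 392, 382 and 381 normalised counts with OE control and at 1593, 1552 and 1551 with GALNT7 OE (log2 fold change 2.02, SE 0.0599, limma adjusted p = 3.02e-06). BIRC5 was at 1187, 1211 and 1149.6 with OE control and at 4695.5, 4324 and 4294 with GALNT7 OE (log2 fold change 1.91, SE 0.0555, limma adjusted p = 2.92e-06). In both of these targeting subunits the libraries of a group lay close together and far from the other group. AURKB, the kinase subunit, had the widest control spread of the 10 genes, at 662, 486 and 455 with OE control and 1695, 1650.4 and 1768.5 with GALNT7 OE (log2 fold change 1.69, SE 0.140, limma adjusted p = 0.000136). OE control replicate 1 stands above the other 2 control libraries for AURKB, and the coefficient of variation of that group was 20.9%. INCENP, the scaffold, had the smallest change of the 10. It was at 777, 771 and 799.99 with OE control and at 1941, 2058 and 2019 with GALNT7 OE (log2 fold change 1.36, SE 0.0553, limma adjusted p = 7.42e-06). The 95% interval of the INCENP change, 1.23 to 1.49, lay below those of CDCA8 (1.88 to 2.16) and BIRC5 (1.77 to 2.04) and met that of AURKB (1.36 to 2.02).

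Both genes of late mitosis rose. PRC1 was at 2102, 2052.5 and 2239.8 normalised counts with OE control and at 6239, 6039.9 and 6524 with GALNT7 OE (log2 fold change 1.56, SE 0.0531, limma adjusted p = 4.19e-06). ANLN, the most abundant of the 10 with GALNT7 OE before allowing for length, was at 2486, 2396 and 2310.3 with OE control and at 8809.7, 9144 and 8756 with GALNT7 OE (log2 fold change 1.89, SE 0.0447, limma adjusted p = 1.63e-06). ANLN overlaps KIAA0895 on the other strand (a mean of 468 normalised counts in DU145 cells). A second gene model on the strand of PRC1, AC068831.7, overlaps it and was not among the genes measured in either cell line. Whether reads from it were counted under PRC1 cannot be told.

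In CWR22Rv1 cells with GALNT7 KD the same genes changed far less, and only PRC1 passed the threshold, where it fell by 29.2%. Limma called 9.06% of the 17906 genes tested in this comparison, 5.28% higher and 3.79% lower, so 1 of 10 is near the background. The other 9 genes ran from a log2 fold change of -0.25 for BIRC5 to 0.11 for ANLN. The median of the 10 was -0.12, against -0.01 over all genes tested. The GALNT7 KD and shControl libraries did not overlap in 6 of the 10 genes, AURKA, PLK1, TPX2, BIRC5, CDCA8 and PRC1, beside 32.5% of all genes tested. At an unadjusted p under 0.05 the count was 3 of 10, beside 26.1% of all genes.

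PRC1 was at 4070.5, 3829 and 4187 normalised counts with shControl and at 2838, 2876 and 2841 with GALNT7 KD (log2 fold change -0.50, SE 0.0502, limma adjusted p = 0.00334). The 3 GALNT7 KD libraries had a coefficient of variation of 0.746% and lay below the lowest shControl library. PRC1 is thus the 1 member past the threshold in both comparisons, lower with GALNT7 KD and higher with GALNT7 OE, each in its own cell line; whether the effects in the 2 lines differ was not tested. PRC1 was also among the cell cycle genes that the study picked from these libraries for opposite changes, so its direction here is not independent evidence. The median log2 fold change of the 588 genes of chromosome 15, which holds PRC1, was 0.02 in this comparison.

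BIRC5 lay just outside the threshold. It was at 4313, 4067 and 4196 normalised counts with shControl and at 3292, 3523 and 3779.7 with GALNT7 KD (log2 fold change -0.25, 95% interval -0.40 to -0.10, limma adjusted p = 0.0544). It was called lower without GALNT7 KD replicate 3, the highest of its case libraries (adjusted p = 0.0351), with genes under a mean of 20 left out (0.0482), after 75th percentile scaling (0.0444) and by DESeq2 (0.00500); over all 16 alternatives its adjusted p ran from 0.00500 to 0.168. The other passengers were closer to their controls. AURKB was at 1978, 1826 and 1735 with shControl and at 1654, 1532 and 1786 with GALNT7 KD, where replicate 3 lay above the lowest control library (log2 fold change -0.16, 95% interval -0.35 to 0.04, limma adjusted p = 0.278). CDCA8 was at 1943, 1872 and 1889.8 with shControl and at 1804, 1726 and 1702 with GALNT7 KD (log2 fold change -0.13, 95% interval -0.25 to 0.00, limma adjusted p = 0.199). INCENP was at 1584, 1759 and 1664.5 with shControl and at 1704.5, 1578 and 1556 with GALNT7 KD (log2 fold change -0.05, 95% interval -0.21 to 0.11, limma adjusted p = 0.697). The INCENP groups overlapped on both sides.

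The spindle kinases had slightly lower means with GALNT7 KD, none past the threshold. AURKA was at 1958, 1933 and 1903 normalised counts with shControl and at 1807, 1783.5 and 1697 with GALNT7 KD (log2 fold change -0.13, 95% interval -0.26 to -0.01, limma adjusted p = 0.177). PLK1 was at 4158, 4205 and 4334 with shControl and at 3843, 3793 and 4110.1 with GALNT7 KD (log2 fold change -0.11, 95% interval -0.23 to 0.00, limma adjusted p = 0.205). In both kinases each GALNT7 KD library lay below each shControl library, by a small margin in PLK1. TPX2 was at 5708.5, 5972 and 5697 with shControl and at 5533, 5489 and 4966 with GALNT7 KD (log2 fold change -0.12, 95% interval -0.25 to 0.01, limma adjusted p = 0.219). CDC25C was at 674, 695 and 606 with shControl and at 621, 695 and 554 with GALNT7 KD (log2 fold change -0.08, 95% interval -0.34 to 0.17, limma adjusted p = 0.683). Its interval was the widest of the 10 genes, and the groups overlapped. ANLN was the 1 gene with a higher mean in GALNT7 KD, at 3856, 3999.9 and 4008 with shControl and at 4173, 4701 and 3942.5 with GALNT7 KD (log2 fold change 0.11, 95% interval -0.06 to 0.28, limma adjusted p = 0.385). GALNT7 KD replicate 2 was its highest library, and the groups overlapped.

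**Figure D2:**
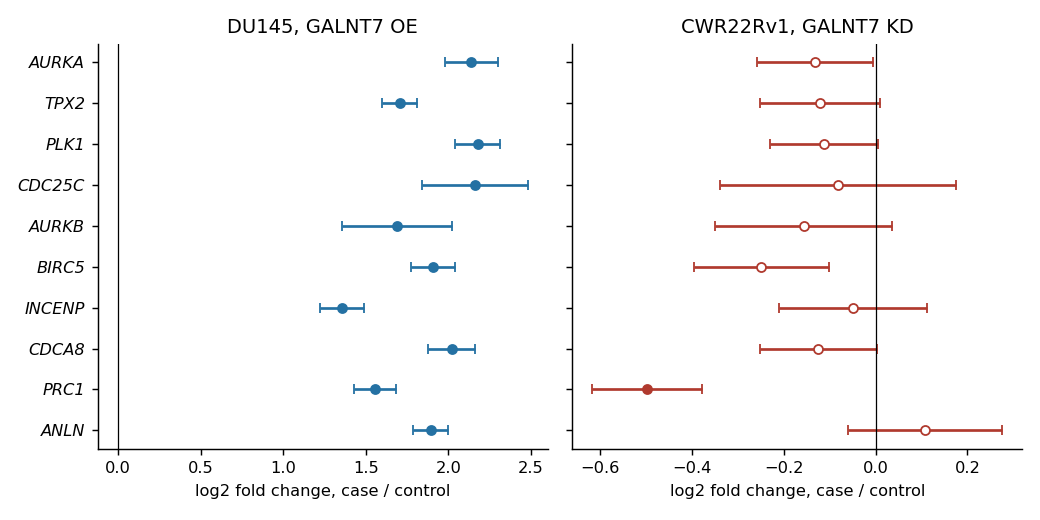
Log2 fold change of each gene (GALNT7 OE over OE control at left, GALNT7 KD over shControl at right; the horizontal scales differ) with its 95% interval from limma, n = 3 against 3; filled points passed the adjusted threshold of 0.05. All 10 points at left are filled, from 1.36 for INCENP to 2.18 for PLK1, and at right only PRC1 is.

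Because levels of different genes compare only per length, each normalised count was also divided by the median length in kilobases of the gene's protein-coding transcripts. On this scale the order of the 10 genes in DU145 OE control libraries ran from PRC1 (702 ± 32.0 normalised counts per kb, SD, n = 3) and TPX2 (632 ± 12.1) through ANLN (508 ± 18.6), BIRC5 (483 ± 12.6), AURKB (447 ± 93.4) and AURKA (411 ± 30.4) to PLK1 (247 ± 4.20), INCENP (204 ± 3.99), CDCA8 (161 ± 2.59) and CDC25C (47.5 ± 4.99). Neighbours from ANLN to AURKA overlapped between libraries, whereas PLK1, INCENP, CDCA8 and CDC25C were each separate from the next. With GALNT7 OE, PRC1 (2066 ± 80.2) and TPX2 (2059.6 ± 67.6) still led and overlapped, CDCA8 (656 ± 9.95) lay above INCENP (524 ± 15.5), and CDC25C (214 ± 24.3) stayed lowest. The order in CWR22Rv1 shControl libraries was another one, led by PLK1 (1901 ± 41.0), BIRC5 (1714 ± 50.3), TPX2 (1631 ± 43.9) and AURKB (1542 ± 102). PRC1 (1328 ± 60.1), AURKA (895 ± 12.9), ANLN (837 ± 18.1), CDCA8 (797 ± 15.6), INCENP (436 ± 22.8) and CDC25C (337 ± 23.8) followed. Of neighbours in this order, TPX2 overlapped both BIRC5 and AURKB. Percentiles per kb were taken within each line over the tested genes with a protein-coding transcript length, 13640 in CWR22Rv1 and 13941 in DU145 cells. PLK1 stood at the 93.1th percentile in shControl libraries and at the 53.2th in OE control libraries, and rose to the 86.3th with GALNT7 OE. One transcript length per gene was used, so an isoform of another length would move a gene in this order.

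Partner genes were also compared as a ratio within each library, which no scaling of the library can change. The difference of a log2 ratio between groups is the difference of the partners' log2 fold changes, and gene length drops out of it. Relative to the scaffold INCENP, CDCA8 was at ratios of 0.506, 0.497 and 0.477 with OE control and at 0.820, 0.754 and 0.768 with GALNT7 OE. BIRC5 relative to INCENP was at 1.53, 1.57 and 1.44 with OE control and at 2.42, 2.10 and 2.13 with GALNT7 OE. The GALNT7 OE libraries lay above all OE control libraries in both ratios, which were 1.58-fold and 1.46-fold higher on average. AURKB relative to INCENP was at 0.853, 0.630 and 0.570 with OE control and at 0.873, 0.802 and 0.876 with GALNT7 OE. These groups overlapped because of OE control replicate 1. The AURKB to INCENP difference was 0.33 on the log2 scale (two-sided exact permutation p = 0.2). It was 0.50 without OE control replicate 1 (exact p = 0.2) and 0.21 without OE control replicate 3 (exact p = 0.4). Leaving out OE control replicate 1 separated the groups, and its exact p is the smallest that the remaining libraries allow. AURKA relative to TPX2 was at 0.367, 0.403 and 0.415 with OE control and at 0.537, 0.532 and 0.530 with GALNT7 OE, without overlap and 1.35-fold higher on average. In each of the 3 ratios without overlap the two-sided exact permutation p was 0.1, the smallest that 3 libraries against 3 allow, and the value adjusted over all 8 ratios was 0.267, so none could reach the threshold.

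With GALNT7 KD all 4 ratios overlapped between groups. The log2 difference was -0.20 for BIRC5 to INCENP, -0.11 for AURKB to INCENP, -0.08 for CDCA8 to INCENP and -0.01 for AURKA to TPX2. The exact permutation p ran from 0.2 to 0.9.

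**Figure D3:**
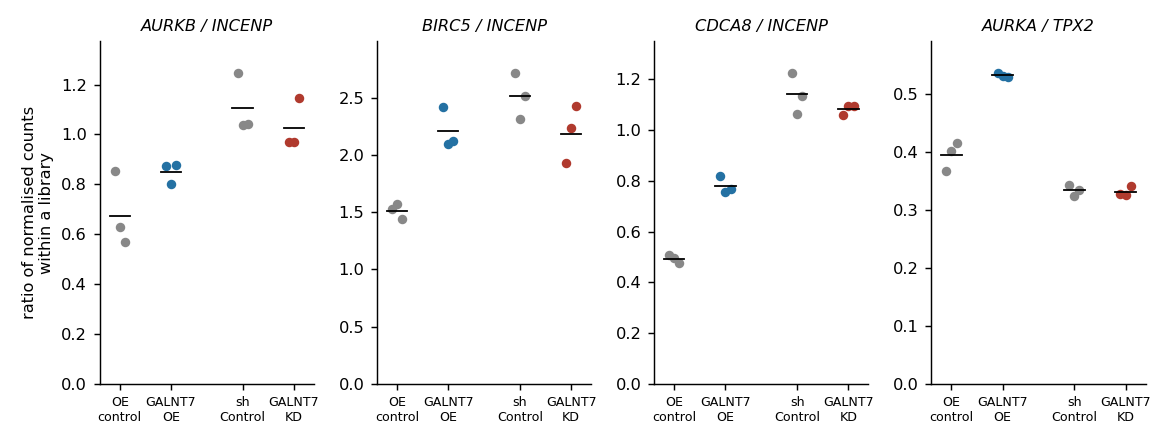
Ratio of normalised counts of the named partners within each library (vertical axes from 0, not corrected for length), for the 4 groups; a point is 1 library and a short line the geometric mean of 3. In DU145 cells the GALNT7 OE points lie above all OE control points for BIRC5 and CDCA8 over INCENP and for AURKA over TPX2, and in CWR22Rv1 cells the groups overlap in all 4 ratios.

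Since the 10 genes rose together in DU145 cells, their promoters are shown here. Genes of late G2 and mitosis often carry near their start a cell cycle homology region, TTTGAA, which the MuvB complexes bind, and upstream of it CCAAT boxes, which NF-Y binds. Both motifs were searched on both strands in the promoter windows of RefSeq on GRCh38.p14, which span 250 bases before to 50 after a start. Windows were found for 7 of the 10 genes, AURKB, CDC25C, INCENP, CDCA8, PLK1, PRC1 and ANLN; AURKA, BIRC5 and TPX2 were not in the table. TTTGAA or its reverse complement occurred in 6 of these 7 genes, and in 15.2% of all 35116 windows (18.2% of 27305 genes). In all 6 it lay within the 50 bases before a listed start, where 3.22% of all genes hold it. CCAAT occurred in 6 of the 7, in 34.6% of all windows and in 39.7% of all genes. The 130 bases before the start are printed below 5′ to 3′ on the strand of the gene, with both motifs and their reverse complements in capitals. For a gene with several listed starts, the start shown was the first with TTTGAA in those 130 bases. Failing that, it was the start with the nearest CCAAT. The motifs shown for CDC25C and AURKB, which have several starts, are thus partly set by this choice.
PLK1 (chr16:23678759-23678888, plus strand): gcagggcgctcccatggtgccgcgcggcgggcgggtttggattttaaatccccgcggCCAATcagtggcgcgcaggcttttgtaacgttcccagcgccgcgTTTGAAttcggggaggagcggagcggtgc
CDC25C (chr5:138331805-138331934, minus strand): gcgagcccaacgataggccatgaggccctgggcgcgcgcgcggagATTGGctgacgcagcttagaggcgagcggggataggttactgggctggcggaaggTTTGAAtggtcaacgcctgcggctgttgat
INCENP (chr11:62123881-62124010, plus strand): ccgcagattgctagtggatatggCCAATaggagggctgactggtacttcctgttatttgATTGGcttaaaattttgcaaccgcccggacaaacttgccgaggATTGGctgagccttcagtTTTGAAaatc
CDCA8 (chr1:37692386-37692515, plus strand): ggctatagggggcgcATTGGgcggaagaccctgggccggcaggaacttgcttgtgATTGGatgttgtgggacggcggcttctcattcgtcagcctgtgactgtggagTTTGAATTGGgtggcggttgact
PRC1 (chr15:90994536-90994665, minus strand): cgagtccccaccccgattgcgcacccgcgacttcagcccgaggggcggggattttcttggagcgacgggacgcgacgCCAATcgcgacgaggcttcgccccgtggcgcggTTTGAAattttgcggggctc
ANLN (chr7:36389732-36389861, plus strand): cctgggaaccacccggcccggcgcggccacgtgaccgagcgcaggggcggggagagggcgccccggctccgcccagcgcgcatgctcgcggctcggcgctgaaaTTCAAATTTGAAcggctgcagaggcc
AURKB (chr17:8210250-8210379, minus strand): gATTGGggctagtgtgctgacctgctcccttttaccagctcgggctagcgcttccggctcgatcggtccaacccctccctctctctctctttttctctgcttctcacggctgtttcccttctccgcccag

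Counting the base before the start as position -1, the first letter of TTTGAA lay at -30 in CDC25C, -29 in PLK1, -23 in CDCA8, -20 in PRC1 and ANLN and -10 in INCENP. ANLN held a reverse copy directly before it, at -26, and had no CCAAT in its window. In CDCA8 the last base of TTTGAA is the first base of a reversed CCAAT at -18, and 2 further reversed copies lay at -115 and -75. INCENP held 3 CCAAT boxes, at -107, -71 and -28. PLK1, PRC1 and CDC25C held 1 each in the sequence shown, at -73, -53 and -85. AURKB, with 2 listed starts, held a reversed CCAAT at -129 of the start shown and no TTTGAA in either window, which says only that these letters are not there. CDC25C has 4 listed starts; the sequence belongs to 1 of them, a second start reads the same TTTGAA at position 44, and the other 2 windows held neither motif. In all 7 genes the outermost start in GENCODE 29 lies upstream of the start shown. A match is a description of the letters and not evidence of binding in these cells.

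Genes of the same pathways were read from lists of other regulators. With GALNT7 OE, limma called 22.9% of all genes tested higher and 20.5% lower, the background for the counts below. In DU145 cells, 16 of 18 regulators of mitotic entry and exit passed the threshold higher and 1 lower with GALNT7 OE (median log2 fold change 1.51). The mitotic kinase CDK1 (2.18) and its cyclins CCNB2 (2.09) and CCNB1 (2.04) had the largest values. ARPP19, a phosphatase inhibitor that acts at mitotic entry, was the 1 lower (-0.15, limma adjusted p = 0.0494), a call that held under 8 of 16 alternatives and under 1 of the 6 that left out a library (adjusted p from 0.00601 to 0.1502). Of 12 Aurora partners and genes that load the passenger complex onto chromatin, 11 passed higher and none lower (median 1.03), led by the centromere guard SGO1 (2.31) and the histone kinases BUB1 (2.17) and HASPIN (1.62). The count was 8 higher after 75th percentile scaling and after quantile normalisation.

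Of the 21 genes of the cytokinesis list, 14 passed higher and 3 lower with GALNT7 OE in DU145 cells (median 0.43). All genes tested passed in 22.9% higher and 20.5% lower, and the lower calls of these lists did not exceed that background. The mitotic kinesins KIF14 (2.06) and KIF20A (1.96) and the abscission factor CEP55 (1.81) led. The 3 lower genes were CHMP4B (-0.48), of the membrane scission machinery, and the myosin genes MYL9 (-0.43) and MYH9 (-0.37). Of 16 genes of G2/M transcription (FOXM1, MYBL2, the MuvB core, E2F, pocket proteins and NF-Y), 11 passed higher and 2 lower (median 0.42). MYBL2 (2.03), FOXM1 (1.94) and E2F1 (1.11) had the largest values, and the pocket protein gene RBL2 (-0.55) and NFYB (-0.26) were lower. Genes of S phase rose as well, since all 16 DNA replication genes passed higher (median 1.15), led by CDC45 (2.10), ORC1 (1.88) and CDC6 (1.75). In the promoter windows of these lists, TTTGAA occurred in 8 of 15 genes of entry and exit, 7 of 19 of cytokinesis, 5 of 13 of G2/M transcription, 3 of 11 Aurora partners and 0 of 13 replication genes, beside 18.2% of all genes. CCAAT occurred in 12, 15, 7, 9 and 10 of the same numbers of genes, beside 39.7% of all genes. Within the 50 bases before a listed start, TTTGAA lay in 4 of 15 genes of entry and exit and 2 of 19 of cytokinesis. The counts were 1 of 13 in G2/M transcription, 1 of 11 Aurora partners and 0 of 13 in replication, beside 3.22% of all genes.

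With GALNT7 KD few genes of these lists passed, where limma called 9.06% of all genes tested and 26.1% were at an unadjusted p under 0.05. Of the regulators of entry and exit, the separase gene ESPL1 passed lower (-0.57, limma adjusted p = 0.0184), 1 of 18 (median -0.06); the call held under 12 of 16 alternatives and was lost with no trend and without shControl replicate 1, shControl replicate 3 or GALNT7 KD replicate 2 (highest adjusted p = 0.0669). Of the Aurora partners none of 12 passed with limma or edgeR, 1 lower with DESeq2, and 3 were at an unadjusted p under 0.05 (median 0.00). In the cytokinesis list RACGAP1, a partner of KIF23 in the centralspindlin complex (-0.38, limma adjusted p = 0.0103), and the septin gene SEPTIN9 (-0.30, 0.0354) passed lower. Another septin gene, SEPTIN2, passed higher (0.21, 0.0245), and the list median was -0.04. RACGAP1 held under 13 of 16 alternatives and was lost with no trend and without shControl replicate 1 or GALNT7 KD replicate 1 (highest adjusted p = 0.0515). SEPTIN9 held under 7 and was lost whichever library was left out, and SEPTIN2 held under 9 and was lost in 5 of the 6 fits without a library, all but that without GALNT7 KD replicate 3 (highest adjusted p = 0.103 and 0.133). In G2/M transcription FOXM1 (-0.40, limma adjusted p = 0.00751), E2F4 (-0.38, 0.0465) and NFYB (-0.32, 0.0293) passed lower and none higher (median -0.13). FOXM1 held under all 16 alternatives. E2F4 and NFYB held under 8 each; NFYB was lost whichever library was left out and E2F4 in each case but that without shControl replicate 2 (highest adjusted p = 0.142 for E2F4 and 0.111 for NFYB). No replication gene of 16 passed in the main limma fit or with edgeR, and 5 were at an unadjusted p under 0.05 (median -0.09). Under alternatives, 2 passed lower with DESeq2, 1 with limma after quantile normalisation and 3 with limma without GALNT7 KD replicate 3.

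ESPL1, RACGAP1, FOXM1 and NFYB lie on chromosome 12, where the median log2 fold change of all 922 genes tested was -0.28 with GALNT7 KD, the lowest of the autosomes and X, and 24.0% passed the threshold. The part of this shift in their decrease was not tested. None of the 10 mitotic genes lies on chromosome 12. Their own chromosomes had medians between -0.05 and 0.05 in this comparison. Beside their own decrease with GALNT7 KD, ESPL1 (1.55), RACGAP1 (1.45), FOXM1 (1.94) and SEPTIN9 (0.34) passed higher with GALNT7 OE, and NFYB was lower in both comparisons.

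**Figure D4:**
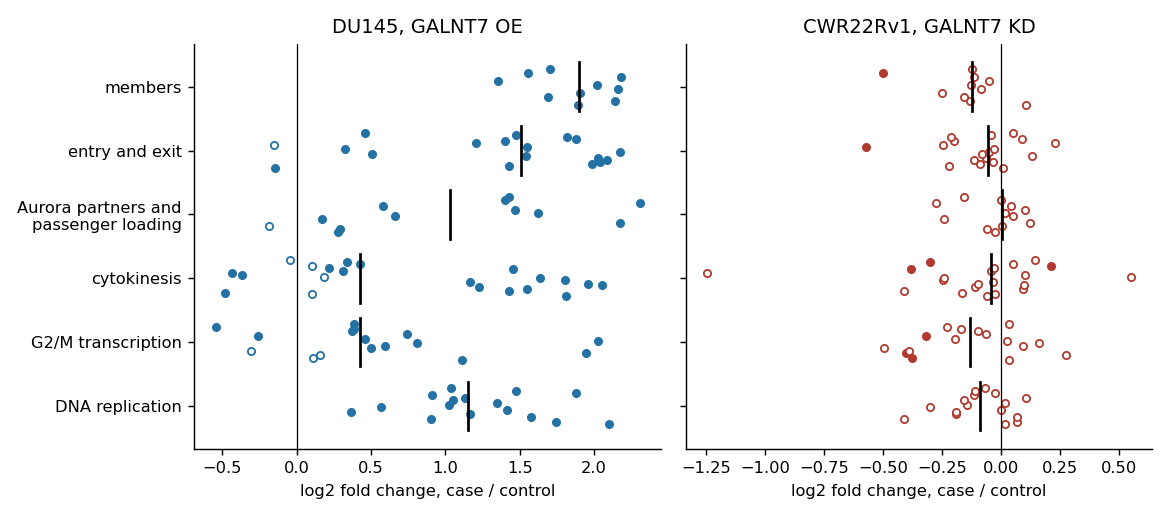
Log2 fold change of every gene of the 10 described here ("members") and of the 5 other lists, GALNT7 OE over OE control at left and GALNT7 KD over shControl at right (the horizontal scales differ); filled points passed the adjusted threshold of 0.05 and a vertical bar is the list median. At left the median of the 10 genes, 1.90, is above the list medians of 0.42 to 1.51, and at right the medians lie between -0.13 and 0.00.

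The genes whose profile over the 12 libraries was most like the mean of the 10, after centring each gene within its cell line, were FAM83D (Pearson r = 0.9988), BUB1B (0.9982), SRSF3 (0.9981), LYAR (0.9978) and CENPA (0.9978), out of 11816 genes with a mean of at least 50 normalised counts in both tables. The 12 points fall into the groups of the design, with the largest step between OE control and GALNT7 OE. The centred mean of the 10 genes was -0.94 to -0.92 in OE control libraries and 0.90 to 0.96 in GALNT7 OE libraries, against 0.06 to 0.08 with shControl and -0.09 to -0.05 with GALNT7 KD. FAM83D (a spindle protein), BUB1B (a spindle checkpoint kinase) and CENPA (the centromeric histone) rose in DU145 cells by 1.74, 2.06 and 1.98 on the log2 scale. SRSF3, a splicing factor, and LYAR, a nucleolar protein, rose by 1.15 and 1.23. None of the 5 passed the threshold with GALNT7 KD.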

How the data were processed

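The authors deposited 1 table per cell line of normalised counts, a signal equal to reads divided by a size factor per library. Per the labels, libraries were made from RNeasy RNA with a TruSeq Stranded mRNA kit, and the submitters' processing notes name FastQC, Salmon, DESeq2, R 3.5.3 and hg38 without roles; the annotation release is not given in the sources used here. Division by the smallest value above 0 in a library returned whole reads for 100% of values, within 0.01. Names, positions and lengths were taken from GENCODE 29, which holds 94.4% of identifiers, and promoter sequences from RefSeq (GRCh38.p14).

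Groups came from the labels. Each line was fitted alone with limma 3.58.1 in R 4.3.3 (lmFit, eBayes with trend) on the log2 of the deposited value plus a pseudocount of 1, keeping genes whose mean reached 5, with Benjamini-Hochberg adjustment at 0.05 over all genes tested. Ratios were tested by exact permutation. Alternatives were other pseudocounts and filters, other scalings, a replicate block, no trend, each library left out, and edgeR 4.0.16 and DESeq2 1.42.0 on recovered reads. On simulated counts limma called 102 of 104 genes changed by 1 on the log2 scale and 96 of 96 changed by 2 in the knockdown design, with 12 false calls among 17702 genes, and 102 of 103 and 97 of 97 in the overexpression design, with 9 among 18519. The simulation used the same added spread for all genes and placed changes only in genes of higher mean count. No change below 1 was simulated, so detection of changes as small as those of the 10 genes with GALNT7 KD was not tested. Replicate libraries differed by more than sampling noise (mean chi-square per gene from 9.44 to 26.0), so each was counted once. The 10 genes and GALNT7 were named whatever their values. Of each other list the text may name, per comparison, the 3 largest changes past the threshold, those against the list's main direction, and those past it in both comparisons. The 5 nearest genes are those of highest r. The members, lists and motifs were chosen with earlier results of these data known, so their directions are not independent evidence.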

Additional observations from a re-analysis of the deposited data

How the results depend on the processing

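All 10 genes were called higher with GALNT7 OE under each of the 16 alternatives, and none of the log2 fold changes of the 10 genes changed sign in either comparison. Leaving out single libraries still moved the small GALNT7 KD values widely, CDC25C between -0.16 and -0.00039, INCENP between -0.09 and -0.01, ANLN between 0.04 and 0.16 and AURKB between -0.21 and -0.10, none of them called. With GALNT7 KD, 2 in place of 1 of the 10 genes passed with a mean of at least 20, with 75th percentile scaling, with DESeq2 and without GALNT7 KD replicate 3, the added gene being BIRC5 each time; leaving out single libraries gave 1 to 2, and PRC1 passed under all 16. The count of all genes past the threshold with GALNT7 KD was 1623. It was 996 when limma's eBayes ran with no trend, 2642 by DESeq2, 1002 under the replicate block, and 539 to 1336 with single libraries left out; the cause was not tested, except that fewer libraries leave fewer degrees of freedom. The count with GALNT7 OE stayed between 6757 and 8186 around 8132. Same-numbered libraries deviated together little, with r from -0.01 to 0.07 in CWR22Rv1 and 0.02 to 0.04 in DU145 cells. Between differently numbered libraries r ran from -0.06 to 0.07 in CWR22Rv1 and from -0.04 to 0.004 in DU145 cells. In DU145 cells the same-numbered r were thus the higher ones, but all were small, and the numbers were not read as pairs. With the block, 10 genes passed with GALNT7 OE and 1 with GALNT7 KD, and the count of all genes was 7405 and 1002. The log2 difference of the AURKB to INCENP ratio ran from 0.21 to 0.50 with single libraries left out. With 3 libraries per group, the standard errors of the 10 genes with GALNT7 KD were 0.0493 to 0.108 on the log2 scale, which limits how small a change could pass.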
